A study of Drosophila melanogaster with 2 samples.

Results

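Insulator and architectural proteins organise chromosomes into domains and mark the promoters of many broadly expressed genes. The 9 Drosophila melanogaster genes described here encode such proteins: Chro, BEAF-32, Dref, CTCF, su(Hw), Cp190, mod(mdg4), pzg and M1BP. They were taken by the function of their products, from 18277 annotated genes, of which 13968 are protein-coding. A summit, the position of highest enrichment in a peak, was counted for a gene when it lay in the gene or within 1 kb of it. The data are from ChIP-seq, chromatin immunoprecipitation followed by sequencing, of Jing, a zinc finger protein related to the Polycomb repressive complex 2 cofactor AEBP2 of mammals. The samples form 1 group of 2 replicates from separate biosamples, which the labels number 2 and 3. They were transgenic whole embryos of both sexes, aged 0 to 16 h, carrying Jing with GFP at its C terminus and precipitated through the GFP. Whether the line kept untagged jing is not stated in the labels, and the control alignment was not analysed here. With whole embryos, a strong signal from few cells and a weak signal from many cannot be told apart, and the peak lists hold no expression values against which a cell type could be checked.

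In flies, CTCF, Su(Hw) and BEAF-32 bind DNA directly at domain boundaries, and Cp190 and Mod(mdg4), which carry BTB domains, join them as cofactors. Chro, a chromodomain protein, and Putzig, the product of pzg, occur together in the interbands of polytene chromosomes. Dref binds the DNA replication-related element (DRE) in the promoters of many housekeeping genes, where Putzig is a partner of it, and BEAF-32 recognises an overlapping sequence. M1BP binds promoter motif 1, which is frequent at ribosomal protein genes. Many housekeeping genes of the fly start close to a neighbour transcribed in the opposite direction.

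Of the 9 genes, 5 held a thresholded summit: Chro, Cp190, mod(mdg4), pzg and BEAF-32. Each held a single one. The authors' thresholded list, named for a test of agreement between replicates, has 2593 peaks. They are exactly the 2593 strongest of the 30000 relaxed peaks called on the pooled reads. Whether a peak is in the list thus follows its pooled rank. Among all annotated genes 13.2% held a thresholded summit, and among protein-coding genes 15.0% did. A longer span can hold more summits, so the protein-coding genes of 1909 to 26556 bp, the range of the 9 spans, were also counted: 18.4% of 6959 held one. No test was made of the count of 5, because the genes were grouped with results of these data known. Dref, CTCF, su(Hw) and M1BP had no thresholded summit.

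**Figure D1:**
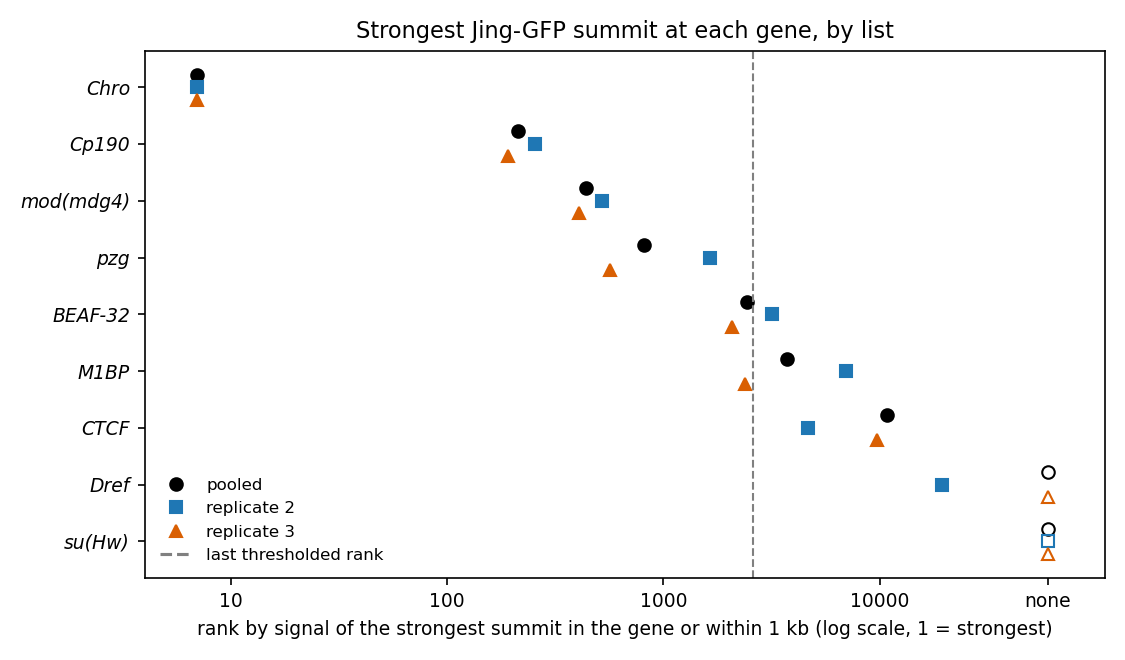
Rank by signal (log scale, 1 is the strongest of 30000 relaxed peaks) of the strongest summit at each gene in the pooled list and in each replicate, with open symbols where a list had none and the dashed line at rank 2593, the last thresholded rank. Chro is at rank 7 in all 3 lists, and su(Hw) is at "none" in all 3. The pooled and replicate 3 points of CTCF lie beyond the 3′ end of the gene.

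The summits at Chro, Cp190, pzg and mod(mdg4) lay at or beside a short gap between protein-coding start sites that face away from each other. The BEAF-32 summit also lay between such starts, but its neighbour, asRNA:CR42254, is not protein-coding. It was 62 bp upstream of the first BEAF-32 start and 137 bp upstream of the asRNA:CR42254 start. Between Chro and Ssl1, which encodes a subunit of the transcription factor TFIIH, the gap is 104 bp. Between Cp190 and CG4338 it is 280 bp, and between pzg and CG12974 it is 136 bp. In mod(mdg4) the gap of 120 bp lies within the gene, between start sites of transcription units annotated as pre-mod(mdg4). M1BP, whose summit was below the threshold, is separated from CG8202 by 392 bp. How often the summits of other genes lie at such gaps was not counted. To set them beside the summits, the gaps at Chro, Cp190, mod(mdg4), pzg and M1BP are printed. They are read from the Release 6 assembly in the direction of the gene named first, and capitals mark the 21 bases centred on the pooled summit where it falls within the printed stretch. The positions are chr3L:22878985-22879088 (minus strand), chr3R:15275242-15275521 (minus strand), chr3R:21365489-21365608 (minus strand), chr3L:21285963-21286098 (plus strand) and, for M1BP, chr3R:8731791-8732090 (minus strand), the 300 bases of the gap nearest to CG8202.
Chro and Ssl1: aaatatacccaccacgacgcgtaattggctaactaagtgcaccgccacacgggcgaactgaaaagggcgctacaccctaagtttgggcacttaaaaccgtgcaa
Cp190 and CG4338: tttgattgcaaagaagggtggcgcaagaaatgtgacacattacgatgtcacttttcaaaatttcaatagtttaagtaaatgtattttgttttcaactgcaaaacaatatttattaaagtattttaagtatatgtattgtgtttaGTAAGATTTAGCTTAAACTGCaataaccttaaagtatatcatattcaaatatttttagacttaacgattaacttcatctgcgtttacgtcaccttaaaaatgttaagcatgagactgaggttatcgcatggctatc
mod(mdg4), pre-mod units: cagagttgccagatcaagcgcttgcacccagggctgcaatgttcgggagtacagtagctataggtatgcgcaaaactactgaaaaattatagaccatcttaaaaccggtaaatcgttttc
pzg and CG12974: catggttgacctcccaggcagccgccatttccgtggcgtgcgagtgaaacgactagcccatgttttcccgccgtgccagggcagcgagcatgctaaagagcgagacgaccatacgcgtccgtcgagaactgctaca
M1BP and CG8202: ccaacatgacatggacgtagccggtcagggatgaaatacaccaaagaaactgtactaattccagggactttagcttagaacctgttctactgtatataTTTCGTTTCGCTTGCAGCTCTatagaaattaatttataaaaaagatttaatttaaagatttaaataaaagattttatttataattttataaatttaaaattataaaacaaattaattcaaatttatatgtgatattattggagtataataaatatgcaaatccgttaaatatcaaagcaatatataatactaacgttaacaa

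The printed gaps differed in base composition: G and C made up 60.3% of the pzg gap, 51.0% of the Chro gap and 44.2% of the mod(mdg4) gap, but 28.9% of the Cp190 gap and 24.7% of the M1BP stretch. The summit lay within the gap at Cp190 and M1BP, the pair poorest in G and C. At the other 3 it lay beyond the gap, by 75 bp at Chro, 6 bp at mod(mdg4) and 99 bp at pzg. The 6 bp at mod(mdg4) are fewer than the 53 bp between its replicate summits, so this distance is uncertain. No list placed the summit inside the gap: it was at 21365483 in the pooled list and replicate 2, and at 21365430, farther from the gap, in replicate 3. The 200 bp centred on the summit held 38.5% G and C at Chro, 23.5% at Cp190, 34% at mod(mdg4), 31.5% at pzg, 30.0% at BEAF-32 and 26% at M1BP, against a median of 34.5% (quartiles 31% and 39%) over all 2593 thresholded summits. The window on the summit thus held less G and C than the gap at Chro, Cp190, mod(mdg4) and pzg. At M1BP it held slightly more than the printed stretch. Windows and gaps overlap, only slightly at pzg but by most of the gap at mod(mdg4).

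**Figure D2:**
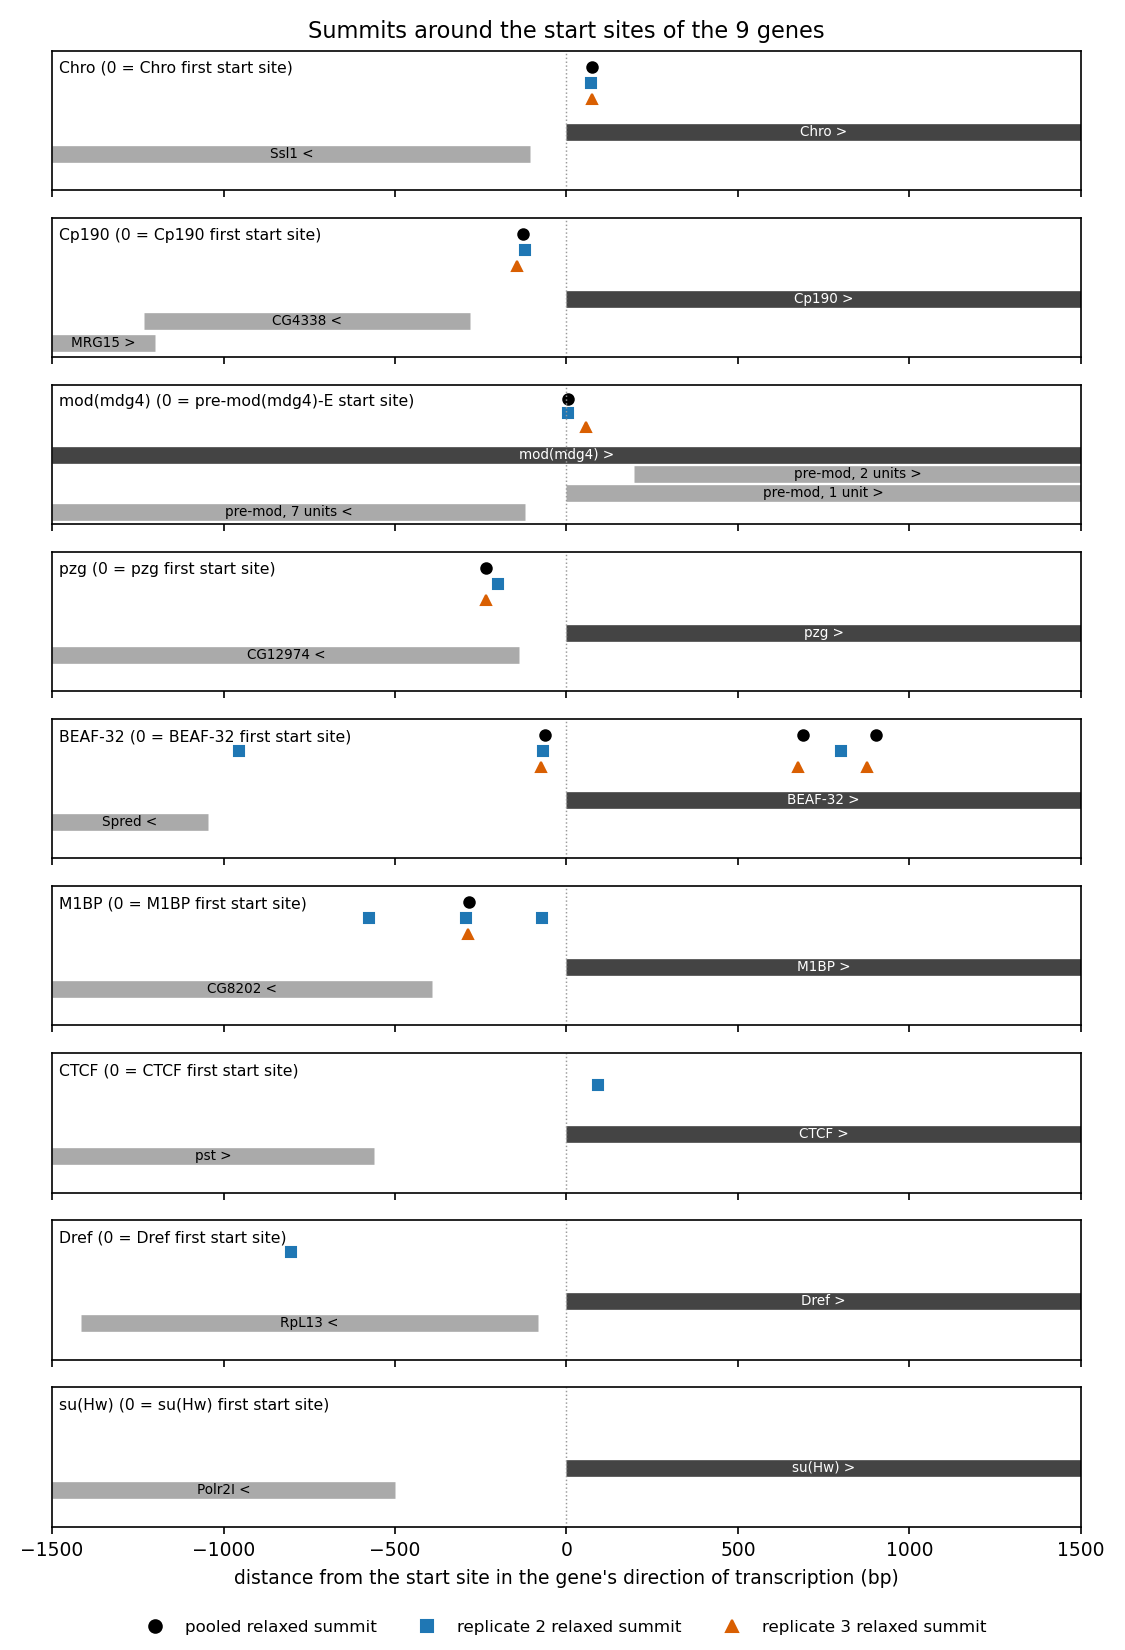
Relaxed summits of the pooled list and of each replicate within 1500 bp of the first start site of each gene, in its direction of transcription, above bars for protein-coding genes (the arrowhead after each name gives the direction). Only summits in the gene or within 1 kb of it are drawn. For mod(mdg4) the zero is the outer start site of pre-mod(mdg4)-E. At Chro, Cp190, mod(mdg4) and pzg the 3 symbols stand together, and at Dref and su(Hw) no symbol lies near the start site. At BEAF-32 the strongest summits of the 3 lists also stand together, 62 to 74 bp upstream of the first start site, with weaker summits farther off.

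Chro (FBgn0044324, chr3L:22873702-22878984, minus strand, 3 start sites) had one of the strongest peaks of the whole data set. Coordinates here are in dm6. Its signal, the authors' own value for a peak on a scale that is not stated, was 682 in replicate 2, 923 in replicate 3 and 1604 in the pooled list. In each list this was rank 7. Signals of different lists are not on 1 scale, so ranks are used across lists. The summits of the replicates were 1 bp apart, and the pooled summit was at 22878910 on 3L (peak 22878742 to 22879062). It lay 74 bp downstream of the first Chro start site, in the 5′ UTR, 142 bp upstream of the second and 179 bp upstream of the nearer Ssl1 start site. The antisense RNA gene asRNA:CR45970 also lies within 1 kb of it. No other relaxed summit lay in or within 1 kb of Chro in any list.

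Cp190 (FBgn0000283, chr3R:15270432-15275241, minus strand), the cofactor that several DNA-binding insulator proteins recruit, was next, with a signal of 180 and rank 254 in replicate 2, a signal of 282 and rank 192 in replicate 3, and a pooled signal of 455 at rank 213. The pooled summit at 15275367 on 3R was intergenic, 126 bp upstream of Cp190 and 155 bp upstream of CG4338, close to the middle of the gap. The replicate summits were 22 bp apart. The antisense RNA gene asRNA:CR46081 starts 850 bp away. As at Chro, the summit was the only summit of the gene in every list.

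At mod(mdg4) (FBgn0002781, chr3R:21350846-21377401, minus strand) the summit counted for the gene was far from the start site of the gene and at starts of other units within it. The locus is known for trans-splicing, in which exons transcribed separately, also from the opposite strand, are joined to shared 5′ exons. The signal was 130 at rank 518 in replicate 2, 196 at rank 406 in replicate 3 and 326 at rank 437 in the pooled list. The pooled summit at 21365483 on 3R was 11918 bp downstream of the single annotated start site of mod(mdg4) itself. A further thresholded summit, at 21378761, lay 1360 bp upstream of that start and so outside the 1 kb limit. Its signal was 96.7 at rank 911 in replicate 2, 67.1 at rank 2187 in replicate 3 and 163 at rank 1396 in the pooled list, a higher place than that of BEAF-32 in replicate 2 and the pooled list and a lower one in replicate 3. The nearest start site to it, 216 bp away, was that of tin, a homeobox gene of heart and visceral muscle development on the other strand, named here after its values were seen. No other member had a thresholded summit between 1 and 2 kb from its span. The counted summit was 5 bp downstream of the outer start site of pre-mod(mdg4)-E, in its 5′ UTR, and 126 bp upstream of the start shared by 7 units on the other strand. The annotation has 23 pre-mod(mdg4) units with 7 distinct start sites. Within 500 bp of the counted summit were 3 of these start sites, which serve 10 units, 7 on the plus strand and 3 on the minus strand. The replicate summits were 53 bp apart, the widest distance among the 5 genes.

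Weaker pooled summits lay at 2 further starts within mod(mdg4). One was 70 bp upstream of the start of pre-mod(mdg4)-AA, -N and -O, at rank 5331 in the pooled list. Its rank was 3353 in replicate 2, 76 bp upstream of that start, and 25366 in replicate 3, 1 bp downstream of it. The other was 13 bp downstream of a start of pre-mod(mdg4)-U and -V, at rank 25607 in the pooled list. In all, 5 of the 7 start sites were within 500 bp of a pooled summit, 3 of them near the same one, the counted summit. The remaining 2, which serve 10 units, were 5715 and 5307 bp from the nearest one. The share of all annotated start sites within 500 bp of a thresholded or pooled summit was not counted, so these counts have no background.

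The summit counted for pzg (FBgn0259785, chr3L:21286099-21290310, plus strand) was nearer to its neighbour. Replicate 2 gave a signal of 67.4 at rank 1650, replicate 3 gave 162 at rank 570, and the pooled list gave 226 at rank 811. The pooled summit at 21285864 on 3L lay 235 bp upstream of pzg and 98 bp downstream of the first start site of CG12974, in the 5′ UTR of that gene. The replicates differed by 2.89 times in rank, more than at Chro, Cp190, mod(mdg4) and BEAF-32. They differed by 35 bp in position. A weak further summit lay near the 3′ end of pzg in each replicate, at rank 9093 in replicate 2 and 20697 in replicate 3, but these were at different positions and the pooled list had neither.

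BEAF-32 (FBgn0015602, chr2R:14770469-14772630, plus strand) passed the threshold narrowly. Its signal was 44.2 at rank 3198 in replicate 2, 69.4 at rank 2086 in replicate 3 and 111 at rank 2442 of 2593 in the thresholded list, whose lowest signal is 106. The summit at 14770407 on 2R lay 62 bp upstream of the first BEAF-32 start site and 137 bp upstream of a start site of asRNA:CR42254 on the other strand, whose exon it falls in. The replicate summits were 5 bp apart. The relaxed lists also held weak summits within the gene, in the pooled list at ranks 9759 and 11338.

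M1BP (FBgn0037621, chr3R:8729790-8731698, minus strand) ranked highest of the genes below the threshold, with a pooled signal of 81.5 at rank 3720. The pooled summit at 8731982 on 3R lay 284 bp upstream of M1BP and 109 bp upstream of CG8202. The replicates differed there: in replicate 3 the only summit was 3 bp from the pooled one, with a signal of 62.9 at rank 2380. In replicate 2 the strongest summit was 70 bp upstream of M1BP, with a signal of 27.8 at rank 6990, and the one beside the pooled summit was at rank 20643. Among the 2593 strongest peaks of each replicate, replicate 3 thus holds M1BP and replicate 2 does not.

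CTCF, Dref and su(Hw) had weak summits or none. For CTCF (FBgn0035769, chr3L:7353578-7356713, minus strand), replicate 2 had a summit 91 bp downstream of the start site with a signal of 35.1 at rank 4674, and replicate 3 had none at that start. Both replicates and the pooled list held a weak summit beyond the 3′ end, in the 3′ UTR of the neighbour qm, at ranks 23318 in replicate 2, 9743 in replicate 3 and 10815 in the pooled list. Dref (FBgn0015664, chr2L:9964147-9967229, minus strand) had a single relaxed summit, at rank 19472 in replicate 2, and it lay in the coding sequence of RpL13, a ribosomal protein gene that starts 83 bp away head to head with Dref. At su(Hw) (FBgn0003567, chr3R:14304455-14308589, minus strand) no list held any summit. The nearest pooled summit was 12860 bp from its start site, and that start faces Polr2I, an RNA polymerase II subunit gene, across 499 bp.

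Counted over the lists, the pooled relaxed list held a summit at 7 of the 9 genes, against 50.7% of protein-coding genes. Any of the 3 relaxed lists held one at 8 of 9, against 68.8%, so a relaxed summit near a gene is common. Within 500 bp of one of the gene's own start sites a thresholded summit lay at 4 of 9, against 8.59% of protein-coding genes. The exception among the 5 was mod(mdg4). Head-to-head pairs were defined, after the maps of these genes were seen, as protein-coding starts on opposite strands within 1000 bp. They include 6 of the 9 genes, against 5052 of all 13968 protein-coding genes. Of the 6, Chro, Cp190 and pzg had a thresholded summit and Dref, su(Hw) and M1BP did not. Of all 5052 protein-coding genes in such pairs, 19.4% had one. Such a neighbour was thus present at 3 of the 5 genes with a thresholded summit and at 3 of the 4 without.

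The replicates found all 5 summits. The thresholded list was made from the peaks of these same replicates and of both together. This, like the distances and ranks below, is therefore description and not independent support. A summit of each replicate lay within 100 bp of every thresholded summit at these genes, as it did for 94.1% of the 2593 thresholded summits. The distance between the replicate summits was 1 to 53 bp at the 5 genes, against a median of 17 bp (quartiles 6 and 38 bp) over the 2440 thresholded summits found in both. Their ranks differed by 1.00 to 2.89 times, against a median of 1.49 times (quartiles 1.21 and 2.02). The rank was higher up in replicate 3 at Cp190, mod(mdg4), pzg and BEAF-32, and equal at Chro. Among the 2593 strongest peaks of 1 replicate alone, replicate 2 held a summit at 4 of the 9 genes and replicate 3 at 6, against 15.4% of protein-coding genes in each.

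**Figure D3:**
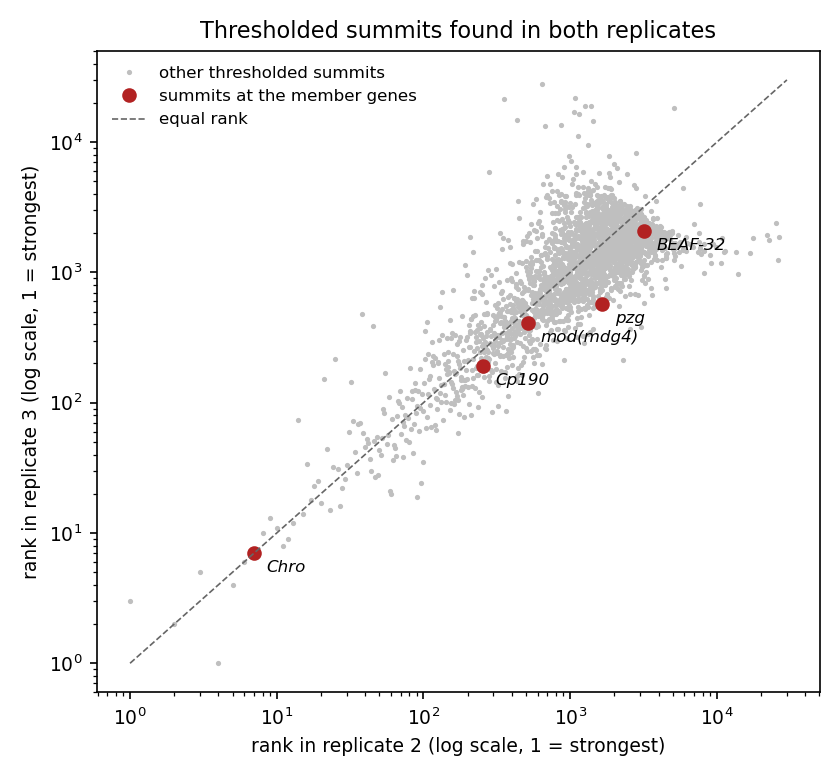
Rank in replicate 2 (x axis) and in replicate 3 (y axis), both on log scales with 1 as the strongest, of the 2440 thresholded summits found in both replicates, with the 5 at the member genes in red and the dashed line at equal rank. Chro is at rank 7 on both axes, the other 4 lie below the line, and pzg is the farthest of these 5 from it, at rank 1650 in replicate 2 and 570 in replicate 3.

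Several of these proteins bind known sequences, and their own promoters were searched for them on both strands, from 250 bp before to 50 bp after the first start site. The DRE, TATCGATA, was in the promoters of 4 of the 9 genes, BEAF-32, CTCF, Cp190 and mod(mdg4), and in 9.36% of all 13968 protein-coding promoters. The BEAF-32 core, CGATA, which every DRE contains, was in 6 promoters, those 4 with Dref and pzg, against 47.3%. The core of motif 1, GGTCACAC, was at su(Hw) alone, 5 to 12 bp downstream of the start site, against 7.69%. The cores used for CTCF (AGGNGGCGC) and Su(Hw) (GCATACTTT) were at none, against 0.673% and 0.716%. GAGAG, the GAGA factor repeat, was also at none, against 29.7%. A match is a description of the letters, not evidence of binding, and no match says only that these letters are not in the window.

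**Figure D4:**
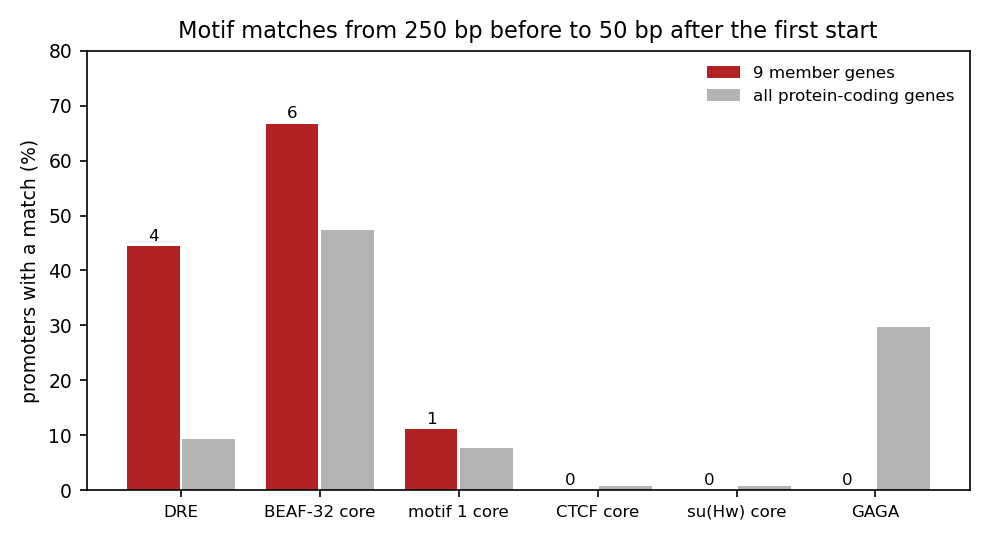
Share of promoters (y axis, percent) with a match to each of the 6 motifs (x axis) among the 9 genes (red, with the number of genes above each bar) and among all protein-coding genes (grey). The DRE is in 4 of 9 against 9.36%, and GAGA is in 0 of 9 against 29.7%.

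The DRE of CTCF, Cp190 and mod(mdg4) and the motif 1 core of su(Hw) are shown with 11 bases on each side, in the direction of the gene, with the motif in capitals, so that they can be set beside the summits. The DRE of BEAF-32 is not shown here. The 4 sites lie at chr3L:7356716-7356745, chr3R:15275227-15275256, chr3R:21377437-21377466 and chr3R:14308566-14308595, and all 4 genes are on the minus strand.
CTCF, DRE: accaatcgaacTATCGATAgctggcggtac
Cp190, DRE: tatcgcatggcTATCGATAgctgccgagcg
mod(mdg4), DRE: atattttaagcTATCGATAtattgtcactt
su(Hw), motif 1: ctacatgcaacGGTCACACtgaattttcat

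The DRE of Cp190 spans the start site itself, and 125 bp separate it from the summit. The DRE of CTCF is 14 to 21 bp upstream of the start site, and that promoter had a summit only in replicate 2. The DRE of mod(mdg4) is 47 to 54 bp upstream of the start of the gene, 11969 bp from the counted summit and 1309 bp from the thresholded summit nearest to it, the one near tin. At BEAF-32 the DRE is 203 to 210 bp upstream of the start site and 144 bp from the summit. None of the 5 windows of 200 bp centred on a thresholded summit of these genes held the DRE, against 1.08% of all thresholded summits. The windows at Chro and pzg held CGATA, against 23.9% of all. None held the motif 1 core (0.964% of all), the CTCF core (1.04%), the Su(Hw) core (0.887%) or GAGAG (24.4%). Of the 1307 protein-coding genes with a DRE in the promoter, 9.03% had a thresholded summit within 500 bp of a start site, and of the 1074 with the motif 1 core 9.31% did, close to the 8.59% of protein-coding genes in general. Among the members 2 of the 4 with a DRE had one, and su(Hw), the 1 with motif 1, did not.

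A wider set of 37 genes for insulator, cohesin, condensin and promoter architecture proteins had thresholded summits in 6 cases (16.2%), close to the 15.0% of protein-coding genes, with 14 summits in all. In order of signal these were Trl, pds5, JIL-1, shep, fs(1)h and Cap-H2. A background of like span was not counted for this set, whose spans run from 503 bp at e(y)2 to 122124 bp at shep. Trl, the GAGA factor gene, had 3 thresholded summits, the strongest in an intron at rank 34. The gene pds5, which encodes a cohesin regulator, had one 178 bp upstream of its start site at rank 104. JIL-1, a histone H3 kinase gene whose product occurs with Chro in interbands, had 2, the stronger in an intron at rank 182. The long gene shep, whose RNA-binding product modulates insulator activity, had 6, the strongest at rank 258. The bromodomain gene fs(1)h had an intronic summit at rank 1462, and the condensin II gene Cap-H2 one 252 bp upstream of its start at rank 1855. Within 500 bp of an own start site a thresholded summit lay at 4 of the 37 (Trl, pds5, shep and Cap-H2), against 8.59% of protein-coding genes. The rest of the set, among them every listed cohesin subunit gene, had no thresholded summit. In the pooled relaxed list 13 of the 37 (35.1%) had a summit, against 50.7% of protein-coding genes.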

How the data were processed

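The readme text deposited with the samples lists relaxed peaks for each replicate and for both together, derived from dm6 alignments and a control, and a thresholded list made from these. How the authors called peaks, and with which version, was not given in the sources used here. Every deposited peak carries a signal without a stated scale, used only for ranks and description. Its −log10 q-value, as deposited, was only tabulated. Start, end and summit are other deposited columns and were made 1-based. Library depth is unknown. With 1 group, no test between samples was possible.

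Genes were those of Ensembl release 115 without transposable elements, and sequence was read from RefSeq's copy of the Release 6 assembly. The text names all 9 members, genes at their summits, and the wider list's genes with a thresholded summit. Of that list, 1 gene was matched through an older symbol. Members, lists and motifs were chosen with earlier results of these data known. Head-to-head pairs, the span range, promoters with a DRE or motif 1 as background, and the pre-mod(mdg4) starts were chosen after these values were seen. The closing section gives the alternatives. Counting and searching were tested on simulated data, in Python 3.11.15 with numpy 2.4.6, pandas 2.3.3 and matplotlib 3.10.9.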

Additional observations from a re-analysis of the deposited data

How the results depend on the processing

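The count of 5 genes with a thresholded summit depended on how summits were given to genes. Within the gene span alone it was 2 (Chro and mod(mdg4)), against 7.34% of protein-coding genes, and by the gene of the nearest start site it was 3 (Chro, Cp190 and BEAF-32), against 11.6%. It was 5 with 500 bp added (13.3%), with 2 kb added (18.5%) and with summits merged within 200 bp (15.0%), and 4 (BEAF-32 lost) in the stronger 50% of the thresholded list (9.40%). With 1 replicate left out, which means the 2593 strongest peaks of the other, it was 4 to 6 (15.4% each way): without replicate 3 BEAF-32 was lost, and without replicate 2 M1BP was added. The count within 500 bp of a start site was 5 without replicate 2 (8.88%) and 3 without replicate 3 (9.39%). Within 50 bp, 4 of the 5 summits were found in both replicates. The share of all thresholded summits at that distance was not counted. Of the 5 summit windows, 2 held any of the 6 motifs in 200 bp (45.1% of all thresholded windows), 1 in 100 bp (22.4%) and 4 in 400 bp (73.9%), as longer windows hold more matches. With 1 replicate left out the rank was 406 to 518 at mod(mdg4), 570 to 1650 at pzg, 192 to 254 at Cp190 and 2086 to 3198 at BEAF-32. Peak lists hold no read counts, so the precision of a single signal is unknown.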
